A study of Mus musculus with 16 samples.

Results

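The carboxylesterases are a family of serine hydrolases that cleave ester bonds in lipids, drugs and other foreign compounds. In mouse liver they are among the abundant proteins of the endoplasmic reticulum, where members of the Ces1 and Ces2 subfamilies hydrolyse stored triacylglycerol and other esters, and some supply lipid for the assembly of very low density lipoprotein (VLDL). Their genes lie in tandem arrays that arose by gene duplication. The 10 liver carboxylesterases described here were taken by gene name, 5 of the Ces1 subfamily (Ces1c, Ces1d, Ces1e, Ces1f and Ces1g), 3 of the Ces2 subfamily (Ces2a, Ces2c and Ces2e) and 2 of the Ces3 subfamily (Ces3a and Ces3b). All 10 were found among the 12617 genes tested, and all 10 passed the minimum mean of 10 normalized counts.

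Messenger RNA was sequenced from mouse liver in 2 groups of 8 libraries, 1 with the genotype label Ctrl (control CRISPR) and 1 with the genotype label CYP7A1 (Cyp7a1 CRISPR), and all mice had been on a Western diet for 8 weeks. CRISPR edits a genome at sites set by guide RNAs, and the product of Cyp7a1 catalyses the rate-limiting step that turns cholesterol into bile acids. The sources used here do not give strain, sex, age, the guides or how they were delivered. Nothing states that each library came from its own animal, so the spread behind the p-values is that between libraries and may be partly technical. The comparison asks what differs in the liver when this gene is targeted.

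The targeted transcript showed no fall under the Cyp7a1 label. It stood at 3587 ± 1252 normalized counts for control livers and 4702 ± 1126 for Cyp7a1-labelled ones (SD, n = 8 each), with a limma adjusted p of 0.227, and 6 of 8 libraries lay above the control mean. Every direction below is therefore that of the label. Recovered reads ranged from 13.8 to 27.4 M (mega) per library. Of the hepatocyte markers, 9 of 10 were matched in the table, and their summed level spanned 1713980 to 2486728 in controls and 1757842 to 2514774 in Cyp7a1-labelled libraries. Of the pancreas and intestine markers, 0 of 7 were among the listed genes. In a bulk sample, fewer cells of a type and less RNA per cell cannot be told apart. Control 20 held the highest control value for 7 of the 10 carboxylesterases, and Cyp7a1 24 held the lowest value of its group for 7 of the 10. Values without both libraries are given below where they change the call of a named gene or pair.

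The genes fall in 2 arrays on mouse chromosome 8 (GENCODE M21 gene models, mm10). The Ces1 array spans 93020214 to 93379725 on the minus strand and holds 8 annotated genes, 6 of them in the table. The array from Ces2a to Ces4a spans 104734003 to 105150109 on the plus strand, 11.4 Mb away, and holds 11 annotated genes, 8 of them in the table. Within the first array Ces1c lies at 93099015 to 93131283, Ces1d at 93166068 to 93197838, Ces1e at 93201218 to 93229619, Ces1f at 93256236 to 93279747 and Ces1g at 93302369 to 93337308. In the second array Ces2a lies at 104734003 to 104741634, Ces2c at 104847068 to 104854483 and Ces2e at 104926260 to 104934672, followed by Ces3a at 105048601 to 105058413 and Ces3b at 105083753 to 105093929. All values are for whole genes, with their exons merged.

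Because the copies resemble each other, some 50-base stretches of each member cannot be assigned to 1 gene. Of the 50-base stretches in the annotated transcripts of Ces2c, 34.3% also occur in another carboxylesterase gene, most of them in the pseudogene Ces2d-ps. The shares are 25.6% for Ces3a and 26.2% for Ces3b, which match each other. Ces1c shares 10.2% of its 50-base stretches, and the other 6 members share between 0.301% and 3.30%. Ces1g, Ces2a and Ces2e, on which the results turn, share 1.67%, 1.84% and 3.30%. For stretches of 100 bases the shares are 13.4% for Ces2c, 6.88% for Ces3a, 7.04% for Ces3b and 1.03% for Ces1c. The other 6 members share 0% at that length. How the counting treated reads with several matches is unknown here, so the levels of Ces2c, Ces3a and Ces3b are the less certain ones. Gene models on record overlap Ces1d (Gm45909) and Ces3a (Gm45724), and the strand setting of the counting is not given either.

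The stretch just upstream of each start site is shown for 4 Ces2 genes and for Ces1g, since the Ces2 genes shared a direction and Ces1g went the other way. RefSeq promoter entries (GRCm38.p6) matched 7 of the 10 members (Ces1c, Ces1e, Ces1g, Ces2a, Ces2c, Ces2e and Ces3b). Sequences are written 5′ to 3′ on the strand of the gene and end at the base before the start. The regions are chr8:104733753-104734002 (Ces2a), chr8:104926010-104926259 (Ces2e), chr8:104961468-104961717 (Ces2g) and chr8:104846818-104847067 (Ces2c), all on the plus strand, and chr8:93337309-93337459 on the minus strand for Ces1g, where 99 of the 250 bases were left out because GENCODE has them as transcribed. Capitals mark matches, on either strand, to any of 5 short motifs. The nuclear receptor half-site was searched as AGGTCA and its variant as AGTTCA. The HNF1 half-site was searched as GTTAAT, the HNF4 core as CAAAGT and the core promoter box as TATAAA.
Ces2a: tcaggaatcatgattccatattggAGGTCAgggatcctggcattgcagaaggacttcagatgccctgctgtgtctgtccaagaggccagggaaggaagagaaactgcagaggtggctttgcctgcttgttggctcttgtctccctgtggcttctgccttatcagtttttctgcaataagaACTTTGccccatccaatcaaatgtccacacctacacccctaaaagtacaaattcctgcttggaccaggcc
Ces2e: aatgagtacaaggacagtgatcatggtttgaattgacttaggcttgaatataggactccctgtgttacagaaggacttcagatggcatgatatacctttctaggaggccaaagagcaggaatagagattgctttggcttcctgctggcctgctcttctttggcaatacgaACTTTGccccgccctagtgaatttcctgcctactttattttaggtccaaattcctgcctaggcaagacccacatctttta
Ces2g: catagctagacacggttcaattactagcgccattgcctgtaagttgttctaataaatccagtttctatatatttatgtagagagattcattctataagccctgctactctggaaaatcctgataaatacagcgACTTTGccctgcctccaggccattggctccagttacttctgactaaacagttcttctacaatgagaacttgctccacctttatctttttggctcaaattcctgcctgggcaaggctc
Ces2c: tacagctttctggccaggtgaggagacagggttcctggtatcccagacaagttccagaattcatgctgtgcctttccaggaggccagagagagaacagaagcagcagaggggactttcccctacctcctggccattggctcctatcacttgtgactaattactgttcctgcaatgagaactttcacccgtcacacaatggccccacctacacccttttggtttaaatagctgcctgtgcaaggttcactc
Ces1g: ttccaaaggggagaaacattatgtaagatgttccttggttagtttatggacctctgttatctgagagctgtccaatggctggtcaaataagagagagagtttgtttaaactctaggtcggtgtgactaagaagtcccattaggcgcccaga
The HNF4 core was found as its reverse complement, ACTTTG, 70 bases upstream of the Ces2a start, 80 bases upstream of Ces2e and 117 bases upstream of Ces2g. It was absent from the windows of Ces2c and of Ces1g, the latter only 151 bases long. The windows of Ces1b, Ces1c, Ces1e, Ces3b and Ces4a, not shown, were searched too and did not hold it. Ces2a also held AGGTCA, at 226 bases upstream, and Ces4a its reverse complement, TGACCT, at 29. Ces1b held AGTTCA at 249 bases upstream, and Ces3b GTTAAT at 56 and TATAAA at 30. In the same window of 27025 RefSeq promoters, 12.5% held the HNF4 core and 13.8% the half-site AGGTCA on either strand. Ces2a and Ces2e also shared a stretch of 17 bases, cagaaggacttcagatg, farther upstream. These matches describe letters in a window and show no binding.

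The family was abundant, and its Ces1 members made up most of it. Together the 10 genes took 0.639% ± 0.067 of the listed normalized counts in control libraries and 0.615% ± 0.030 in Cyp7a1-labelled ones (SD, n = 8 each). Per kb of merged exon, a scale on which genes can be compared, Ces1c, an esterase secreted into plasma, had the highest mean level, 16059 in controls. Ces3a followed at 12597 and Ces1d at 9888, then Ces1f at 3532, Ces3b at 2734, Ces1g at 2642, Ces1e at 2040, Ces2e at 1995 and Ces2a at 1415. Ces2c was the least abundant member, with 199.8 per kb. In this order the neighbours Ces1c and Ces3a, Ces1f and Ces3b, Ces3b and Ces1g, and Ces1e and Ces2e differed by less than the SD of the more variable gene among control libraries.

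Of the 10 carboxylesterases, 1 rose (Ces1g) and 2 fell (Ces2a and Ces2e) in the Cyp7a1-labelled livers, by limma with an adjusted p under 0.05. Over all genes tested, 3.07% were called higher and 3.05% lower, or 6.12% in either direction. The direction followed the subfamily only in part. In Ces1, 1 of 5 members was called higher and 0 lower, with a median log2 fold change of 0.03. In Ces2, 0 of 3 were called higher and 2 lower, and the median was -0.48. In Ces3, 0 of 2 were called in either direction by limma, by edgeR or by DESeq2, 0 had an unadjusted limma p under 0.05, and the median was -0.20. The median over all genes was 0.0034. At an unadjusted limma p under 0.05, 4 of the 10 members passed, the fourth being Ces2c, against 20.5% of all genes.

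**Figure D1:**
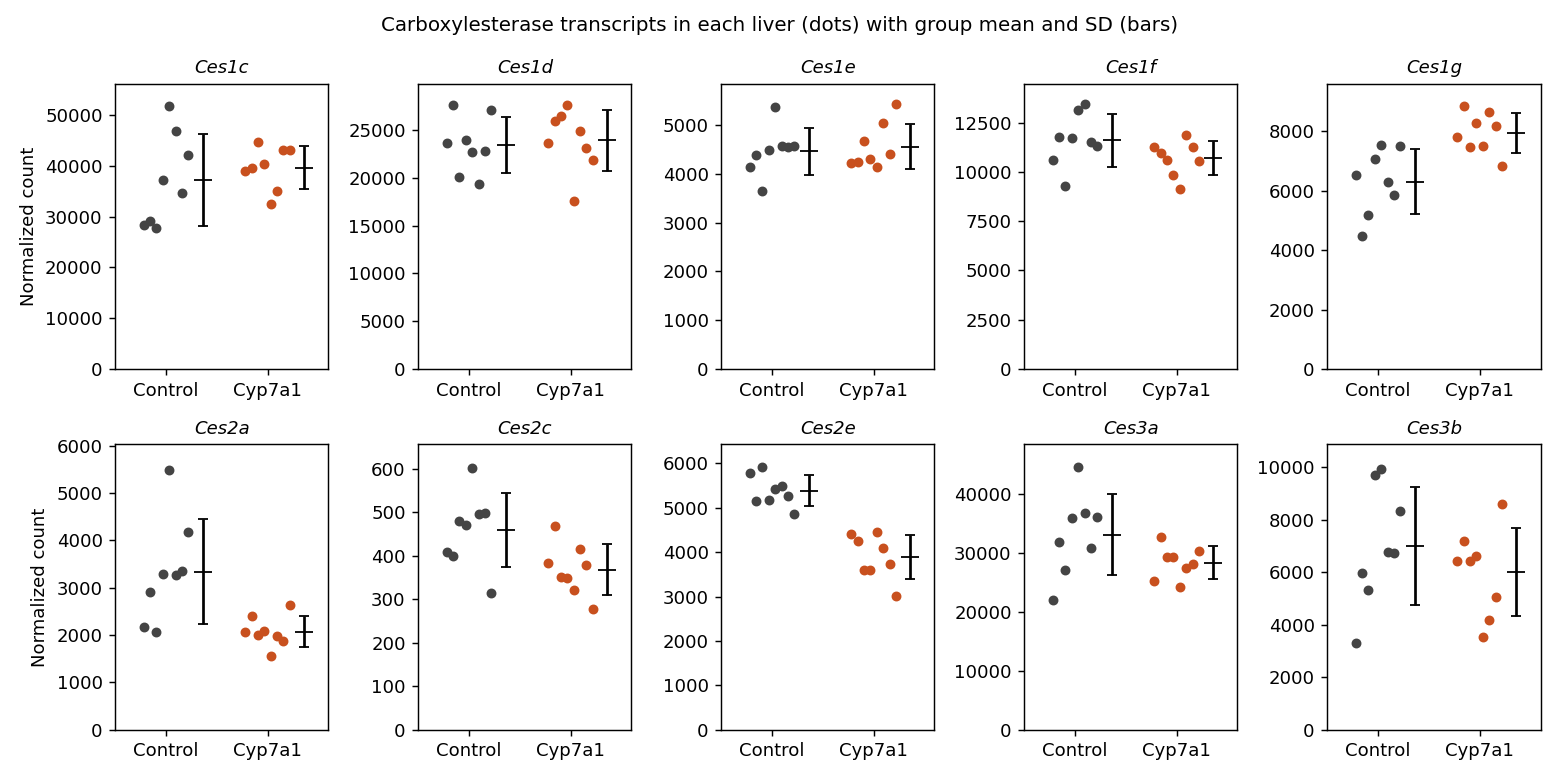
Normalized counts (y axis, linear, from 0) of each carboxylesterase in the 8 control and 8 Cyp7a1-labelled livers; dots are libraries, and the bars beside them give the group mean and SD. Ces2e separates the groups, with controls from 4865 to 5920 and Cyp7a1-labelled libraries from 3015 to 4447. Ces1g is shifted upwards with ranges that overlap in part, and the ranges of the other Ces1 genes overlap.

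Among the Ces1 genes, Ces1g rose. Ces1g, also known as Es-x, is a lipid hydrolase whose loss in mice is known to raise VLDL secretion and liver fat. Its lowest, median and highest values were 4467, 6418 and 7554 normalized counts in controls and 6832, 7994 and 8843 in Cyp7a1-labelled libraries. All 8 Cyp7a1-labelled libraries lay above the control mean and 5 of 8 above the highest control, so the groups overlapped in part. The log2 fold change was 0.35 ± 0.10 (SE, 95% interval 0.15 to 0.55), or 1.27-fold, with a limma adjusted p of 0.0407. The call was close to the threshold and ended in 10 of the 16 fits that left out 1 library, those without Control 12, 13, 25 or 35 or without Cyp7a1 2, 5, 17, 19, 26 or 28, where the limma adjusted p lay between 0.0516 and 0.0753. It ended as well without Control 16 and Cyp7a1 28 together (0.0826), and the fold change over all fits without 1 library lay between 0.28 and 0.39.

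Ces1d, once called triacylglycerol hydrolase, mobilises stored triacylglycerol for VLDL assembly, and its level differed little between groups. Values ran from 19355 over a median of 23239 to 27606 normalized counts in controls and from 17631 over 24289 to 27696 in Cyp7a1-labelled libraries. The log2 fold change was 0.03 ± 0.09 (SE, 95% interval -0.17 to 0.23; limma adjusted p = 0.908). Ces1f, a second lipid hydrolase of this subfamily, had 9272, 11627 and 13448 in controls (lowest, median, highest) and 9131, 10788 and 11891 in the other group. Its log2 fold change was -0.11 ± 0.07 (95% interval -0.27 to 0.04; limma adjusted p = 0.415), and 7 of 8 Cyp7a1-labelled libraries lay below the control mean.

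For Ces1c, control livers spread more widely than Cyp7a1-labelled ones. Its control values ran from 27751 in Control 13 over a median of 36035 to 51849 in Control 20, and its Cyp7a1-labelled values from 32411 over 39957 to 44694. The coefficient of variation was 24.2% in controls and 10.6% in the Cyp7a1-labelled group, a difference that was not tested. The log2 fold change was 0.12 ± 0.13 (95% interval -0.15 to 0.38; limma adjusted p = 0.664), and it ranged from 0.06 without Control 13 to 0.23 without Control 20 and Cyp7a1 24. Ces1e, known as egasyn for holding beta-glucuronidase in the endoplasmic reticulum, had 3646, 4515 and 5385 normalized counts in controls and 4137, 4359 and 5435 in Cyp7a1-labelled livers. The groups covered nearly the same range, with a log2 fold change of 0.03 ± 0.07 (95% interval -0.12 to 0.18; limma adjusted p = 0.863). The intervals of Ces1d and Ces1e exclude a change as large as that of Ces2e, but smaller changes in either direction lie inside them.

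All 3 Ces2 members had lower means in the Cyp7a1-labelled group, and Ces2e was lower in every library. Ces2e is a liver and intestinal esterase of the Ces2 subfamily, whose human counterpart CES2 hydrolyses drugs and glycerides. In controls its values were 5781, 5155, 5920, 5185, 5414, 5494, 5271 and 4865 normalized counts (Control 7, 12, 13, 16, 20, 25, 35 and 38). In Cyp7a1-labelled libraries they were 4406, 4241, 3587, 3601, 4447, 4088, 3722 and 3015 (Cyp7a1 2, 5, 17, 19, 24, 26, 28 and 36). The highest Cyp7a1-labelled library lay below the lowest control, so the groups did not overlap. Over all genes, 0.531% were separated in this direction. Means were 5386 ± 345 and 3888 ± 494 (SD, n = 8 each), and Ces2e fell by 28.2%, with a log2 fold change of -0.48 ± 0.07 (95% interval -0.63 to -0.33; limma adjusted p = 0.000853). This call held in every alternative run, with adjusted p from 7.79e-08 (DESeq2) to 0.00603 (limma after scaling to equal totals).

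Ces2a, a triacylglycerol and diacylglycerol hydrolase of liver, had a larger estimated fall than Ces2e but was more variable among controls. The direct test below did not tell the falls of these 2 genes apart. Its control values were 2161, 2905, 2069, 3293, 5490, 3266, 3350 and 4174 normalized counts (Control 7, 12, 13, 16, 20, 25, 35 and 38). Its Cyp7a1-labelled values were 2056, 2395, 2007, 2074, 1557, 1982, 1881 and 2638 (Cyp7a1 2, 5, 17, 19, 24, 26, 28 and 36). All 8 Cyp7a1-labelled libraries lay below the control mean and 5 of 8 below the lowest control. Control 7 and Control 13 lay within the range of the Cyp7a1-labelled libraries. Ces2a fell by 35.7%, with a log2 fold change of -0.64 ± 0.16 (95% interval -0.98 to -0.29; limma adjusted p = 0.0288). The limma call ended without Control 16 (adjusted p = 0.0520), Control 38 (0.0567) or Cyp7a1 28 (0.0568). It also ended without Control 20 and Cyp7a1 24 together, where the log2 fold change was -0.47 (0.0511), and without Control 16 and Cyp7a1 28 together (0.0948).

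Ces2c, another acylglycerol hydrolase of the subfamily, had the same sign without passing the threshold. Control livers had 315, 476 and 603 normalized counts (lowest, median, highest), against 278, 365 and 469 in Cyp7a1-labelled libraries, and 7 of 8 of the latter lay below the mean of controls. Its log2 fold change was -0.31 ± 0.12 (95% interval -0.56 to -0.06; limma adjusted p = 0.132). Control 38 held its lowest control value, and without that library the adjusted p was 0.0437 and the log2 fold change -0.38. The Ces2c value of Control 38 rested on 205 recovered reads, and this library had the fewest reads of all, 13.8 M.

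The Ces3 genes, esterases of the liver endoplasmic reticulum, had lower means that did not pass the test. Ces3a had 21927, 33795 and 44509 normalized counts in controls (lowest, median, highest) and 24244, 28638 and 32729 in Cyp7a1-labelled libraries. All 8 Cyp7a1-labelled libraries were below the control mean, yet the control range enclosed all of them. Ces3a had a log2 fold change of -0.20 ± 0.11 (95% interval -0.44 to 0.04; limma adjusted p = 0.344). Ces3b had 3302, 6762 and 9928 in controls and 3537, 6431 and 8617 in the other group, the widest spread of the 10 members in both groups by the ratio of highest to lowest value (3.01 and 2.44). Its log2 fold change was -0.20 ± 0.21 (95% interval -0.65 to 0.25; limma adjusted p = 0.660), so neither a fall like that of Ces2e nor a small rise lies outside its interval. Single libraries moved this value, from -0.10 without Cyp7a1 24 to -0.35 without Control 7, and without Control 20 and Cyp7a1 24 together it was -0.017, against -0.11 for Ces3a.

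The 4 other carboxylesterase genes in the table added 3 lower calls, where 3.05% of all genes were called lower. Ces2g had 1419 ± 110 normalized counts in controls and 1203 ± 114 in Cyp7a1-labelled livers (SD, n = 8 each), a log2 fold change of -0.24 ± 0.06 (limma adjusted p = 0.0327). That call ended without Control 20, 25 or 38 or Cyp7a1 17 or 19 (adjusted p from 0.0550 to 0.0647), after scaling to equal totals (0.0674), with array weights (0.0650) and without Control 20 and Cyp7a1 24 together (0.0543). Ces4a had a mean of 76.6 normalized counts in controls and 30.3 in Cyp7a1-labelled livers, with a log2 fold change of -1.24 ± 0.28 (limma adjusted p = 0.0150), and all 8 Cyp7a1-labelled libraries were below the control mean. Its call ended only without Control 16 and Cyp7a1 28 together (0.0592) among the alternatives run.

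Ces2b was thinly covered. Its recovered reads ran from 4 to 109 in controls and from 0 to 34 in Cyp7a1-labelled libraries, and 5 of the 8 Cyp7a1-labelled libraries had 3 reads or fewer. The limma adjusted p was 0.0238, and the log2 fold change was -2.67 with a pseudocount of 1 but -1.58 with a pseudocount of 8. Without Control 20 and Cyp7a1 24 the adjusted p was 0.0545, and without Control 16 and Cyp7a1 28 it was 0.0845. Ces1b, which shares 10.8% of its 50-base stretches with other carboxylesterases, chiefly Ces1c, had 885 ± 368 and 1336 ± 498, with a log2 fold change of 0.62 ± 0.23 that did not pass (limma adjusted p = 0.128). Counting all 14 carboxylesterases in the table, 1 rose and 5 fell, where 3.07% of all genes were called higher and 3.05% lower. Of the 5 Ces2 genes 4 fell, and of these only Ces2e was called in every alternative run. All 5 Ces2 genes had a log2 fold change below 0, against 49.1% of all genes.

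**Figure D2:**
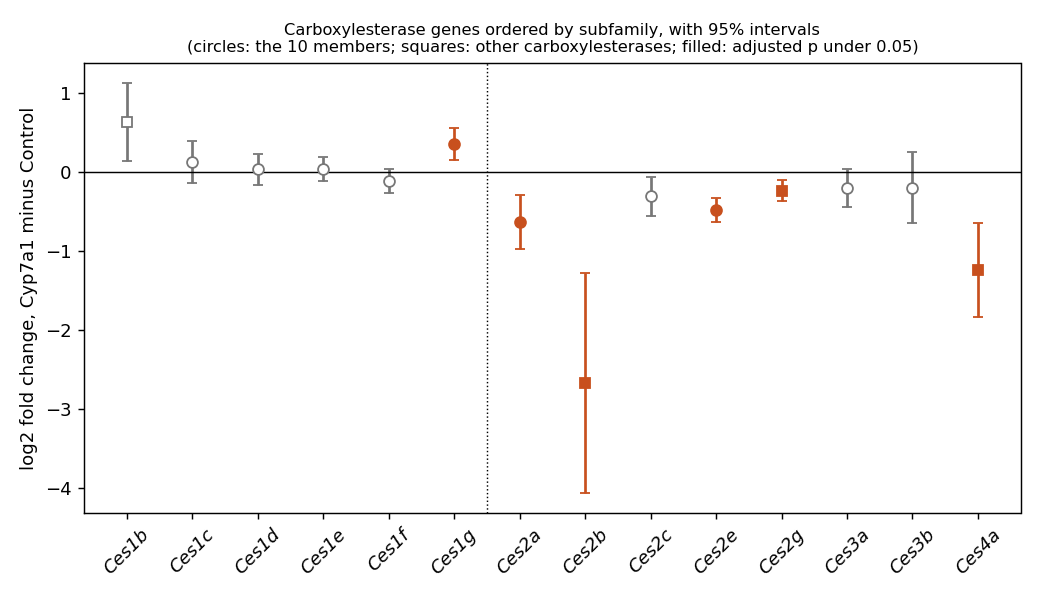
The log2 fold change (y axis, Cyp7a1-labelled minus control) of the 14 carboxylesterase genes (x axis, ordered by name; the dotted line separates the arrays), with 95% intervals from limma; circles are the 10 members, squares the other 4 genes, and filled symbols have an adjusted p under 0.05. All 5 Ces2 genes lie below 0, from -0.24 for Ces2g to -2.67 for the thinly covered Ces2b, while Ces1g is the filled symbol above 0.

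Whether 2 members moved differently was tested directly on the log2 ratio of their values in each library with an exact permutation test, two-sided, that ran through all 12870 ways of assigning libraries to groups. Its p-values were adjusted over the 45 pairs (Benjamini-Hochberg). The smallest p this design can give is 0.000155. Of the 45 pairs, 18 passed. Between Ces1 and Ces2 members 11 of 15 pairs passed, and in all 11 the Ces1 gene rose relative to the Ces2 gene. These 11 pairs were those of every Ces1 member with Ces2a and with Ces2e, and that of Ces1g with Ces2c. Such pairs share genes, so they are not 11 separate results and partly repeat the calls of Ces2a, Ces2e and Ces1g. The members were chosen with results known, which the adjusted p-values do not take into account.

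Per library, Ces1c over Ces2a had a mean log2 ratio of 3.51 ± 0.23 in controls and 4.27 ± 0.18 in Cyp7a1-labelled livers (SD, n = 8 each), and the groups did not overlap. The difference of 0.75 ± 0.10 (SE) had an adjusted exact permutation p of 0.0028. Ces1g over Ces2e went from 0.21 ± 0.30 to 1.04 ± 0.16, again without overlap, a difference of 0.83 ± 0.12 with the same adjusted exact permutation p. In each Cyp7a1-labelled library Ces1g thus stood higher relative to Ces2e than in any control. The largest difference, 0.99 ± 0.16, was between Ces1g and Ces2a (adjusted exact permutation p = 0.0028), where the groups overlapped. No other pair of members separated the groups.

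Members of 1 subfamily were mostly not told apart. Among Ces2 genes 0 of 3 pairs passed: Ces2a and Ces2e differed in their change by -0.16 ± 0.23 (SE, adjusted exact permutation p = 0.563). Ces3a and Ces3b differed by -0.0006 ± 0.15 (adjusted exact permutation p = 0.997), and stretches shared by these 2 genes can make their counts alike. Among Ces1 genes 3 of 10 pairs passed, those of Ces1g with Ces1f, Ces1e and Ces1d. Ces1f moved by -0.46 ± 0.10 relative to Ces1g (adjusted exact permutation p = 0.0028). The other 2 were closer to the threshold, at -0.32 ± 0.11 for Ces1e (0.0292) and -0.32 ± 0.13 for Ces1d (0.0303). Leaving out any of 7 single libraries ended the Ces1e pair, at most 0.0592 without Control 12, and leaving out any of 6 ended the Ces1d pair, at most 0.0692 without Cyp7a1 24. Without Control 20 and Cyp7a1 24 together the Ces1e pair ended (adjusted exact permutation p = 0.0649), and without Control 16 and Cyp7a1 28 together both ended (0.0524 for Ces1e and 0.0656 for Ces1d). Of the 18 pairs, the remaining 16 passed in every alternative run.

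Of the pairs that held a Ces3 gene and a member of another subfamily, 2 of 10 with Ces1 and 2 of 6 with Ces2 passed. Ces1c and Ces1g rose relative to Ces3a, by 0.32 ± 0.08 (adjusted exact permutation p = 0.0052) and 0.55 ± 0.13 (0.0063). Ces2a fell relative to Ces3a, by -0.43 ± 0.10 (adjusted exact permutation p = 0.0052), and relative to Ces3b, by -0.44 ± 0.13 (0.0227). The difference between Ces2e and Ces3a was -0.28 ± 0.17 and did not pass (adjusted exact permutation p = 0.180). Nor did Ces3a differ past the threshold from Ces1e (0.23 ± 0.09, adjusted exact permutation p = 0.0623), Ces1d (0.23 ± 0.14, 0.180), Ces1f (0.09 ± 0.10, 0.448) or Ces2c (-0.11 ± 0.15, 0.549).

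Summed over the members and scaled per kb of exon, Ces2 transcript was lower in every Cyp7a1-labelled library than in any control. The Ces2 sum spanned 3236 to 4595 in controls and 2333 to 2791 in Cyp7a1-labelled livers, with means of 3610 ± 435 and 2480 ± 172 (SD, n = 8 each), a ratio of 0.687. The Ces1 sum was 34161 ± 4732 and 35856 ± 2934, a ratio of 1.05, with overlapping groups. The Ces3 sum was 15331 ± 3415 and 13125 ± 1563, a ratio of 0.856, also overlapping. These sums are given without a test, since the members were chosen with results known. The Ces2 sum consisted mostly of Ces2e, which separated the groups by itself, and of Ces2a, so it largely repeats their results. Of all single genes, 0.531% were separated in this direction. Of the summed per-kb level, Ces2 made up 6.85% ± 0.55 in controls and 4.85% ± 0.55 in Cyp7a1-labelled livers, Ces1 64.5% and 69.7%, and Ces3 28.6% and 25.5%.

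**Figure D3:**
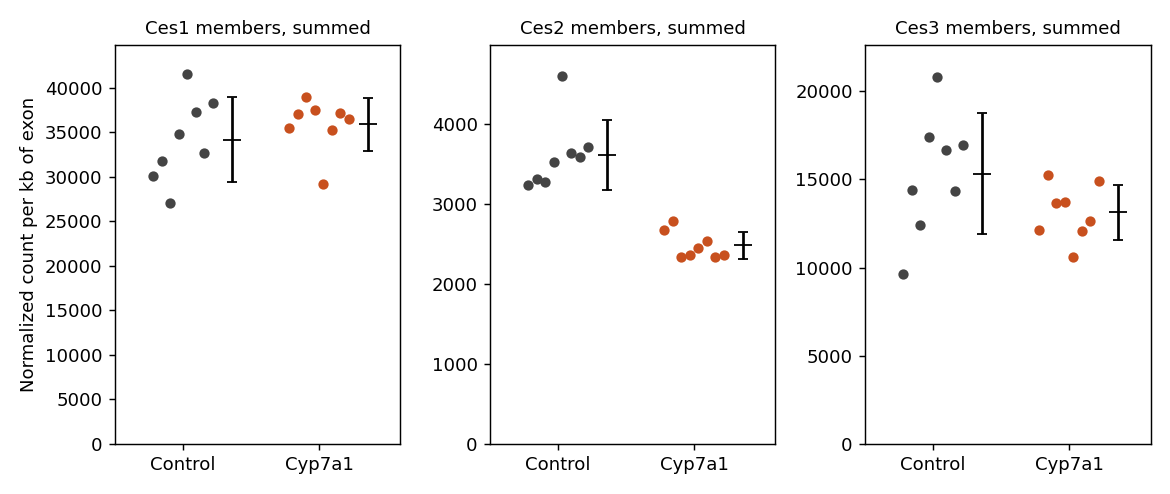
Summed normalized counts per kb of exon (y axes, linear, from 0) of the Ces1, Ces2 and Ces3 members in each library; dots are libraries, and bars give the group mean and SD. The Ces2 sums of the 8 Cyp7a1-labelled libraries, 2333 to 2791, all lie below the lowest control at 3236, while the Ces1 and Ces3 sums overlap between groups.

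Within each subfamily the members' shares of the per-kb sum overlapped between groups. Of the Ces1 sum, Ces1c made up 46.5% in controls and 47.6% in Cyp7a1-labelled livers, Ces1d 29.4% and 28.1%, Ces1f 10.4% and 9.11%, Ces1g 7.74% and 9.33%, and Ces1e the rest. Ces2e made up 56.0% and 58.0% of the Ces2 sum, Ces2a 38.5% and 35.5%, and Ces2c 5.54% and 6.44%. Ces3a made up 82.5% and 82.4% of the Ces3 sum.

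Values also varied among the libraries of 1 group, and several carboxylesterases varied together there. Across the 8 control livers, 34 of 45 pairs of members had a Pearson r of log2(value + 1) above 0, and across the 8 Cyp7a1-labelled livers 31 of 45. Exact permutation p-values were adjusted over these 90 relations, and 6 control and 2 Cyp7a1-labelled pairs passed. Among controls Ces1e and Ces2a had r = 0.931 (Spearman rho 0.857, unadjusted exact permutation p = 0.000198 and 0.0107), with an adjusted exact permutation p of 0.0179 for r and 0.107 for rho. Without the 2 libraries farthest from the median of Ces1e, the gene of this pair that comes first by name, r was 0.924. The same rule was used for every pair below. Ces3a and Ces3b had r = 0.931 among controls (rho 0.881, exact permutation p = 0.000918 and 0.00724), with an adjusted exact permutation p of 0.0275 for r and 0.0931 for rho, and r = 0.773 without the 2 farthest. Ces1c and Ces1e had r = 0.833 (rho 0.976, exact permutation p = 0.000570 and 0.000397; adjusted 0.0257 and 0.0179), and 0.734 without the 2 farthest. The remaining 3 control pairs joined Ces1c, Ces2a and Ces3a with each other, with r from 0.875 to 0.900 and adjusted exact permutation p from 0.0376 to 0.0435. By rho only Ces1c with Ces3a passed among these 3 (adjusted exact permutation p = 0.0342), and the other 2 did not (0.126 for Ces1c with Ces2a and 0.188 for Ces2a with Ces3a). Ces1c, Ces1e, Ces2a, Ces3a and Ces3b thus took part in all 6 passing control pairs, while their other 4 pairs, with r from 0.662 to 0.831, did not pass. Control 20 held the highest control value of all 5 genes. Outside these 5, Ces1f had r = 0.868 with Ces1e, 0.807 with Ces1c, 0.743 with Ces3a, 0.739 with Ces2a and 0.545 with Ces3b among controls. None of these passed (adjusted exact permutation p from 0.0994 to 0.380).

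Ces2e stood apart from this pattern, most clearly in controls by the number of negative relations. Its r with the other members was below 0 for 8 of 9 in controls (median -0.52) and for 6 of 9 in Cyp7a1-labelled livers (median -0.52). The lowest r was -0.72 with Ces1d in controls (rho -0.79, exact permutation p = 0.0413 and 0.0279, adjusted 0.198 and 0.148). In Cyp7a1-labelled livers rho was lowest with Ces1c (-0.88, exact permutation p = 0.00724, adjusted 0.0931). Next came Ces1e there (rho -0.83, exact permutation p = 0.0154, adjusted 0.126). No single negative relation passed the adjustment. For pairs with Ces2e, the 2 libraries left out were those farthest from the median of the partner, or of Ces2e with the Ces3 genes. Without them, the negative control relations of Ces2e kept their sign. Among Cyp7a1-labelled livers its r then turned positive with Ces1d (0.50), Ces2a (0.45) and Ces3b (0.02). It stayed below 0 with Ces1c, Ces1e and Ces3a. In Cyp7a1-labelled livers the pairs that passed were Ces1g with Ces2c (r = 0.911, rho 0.786, exact permutation p = 0.00243 and 0.0279; adjusted 0.0376 and 0.148) and Ces2a with Ces3b (r = 0.898, rho 0.976, exact permutation p = 0.00255 and 0.000397; adjusted 0.0376 and 0.0179). Without the 2 farthest libraries these were 0.719 and 0.668. Whether r differed between the groups was not tested.

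**Figure D4:**
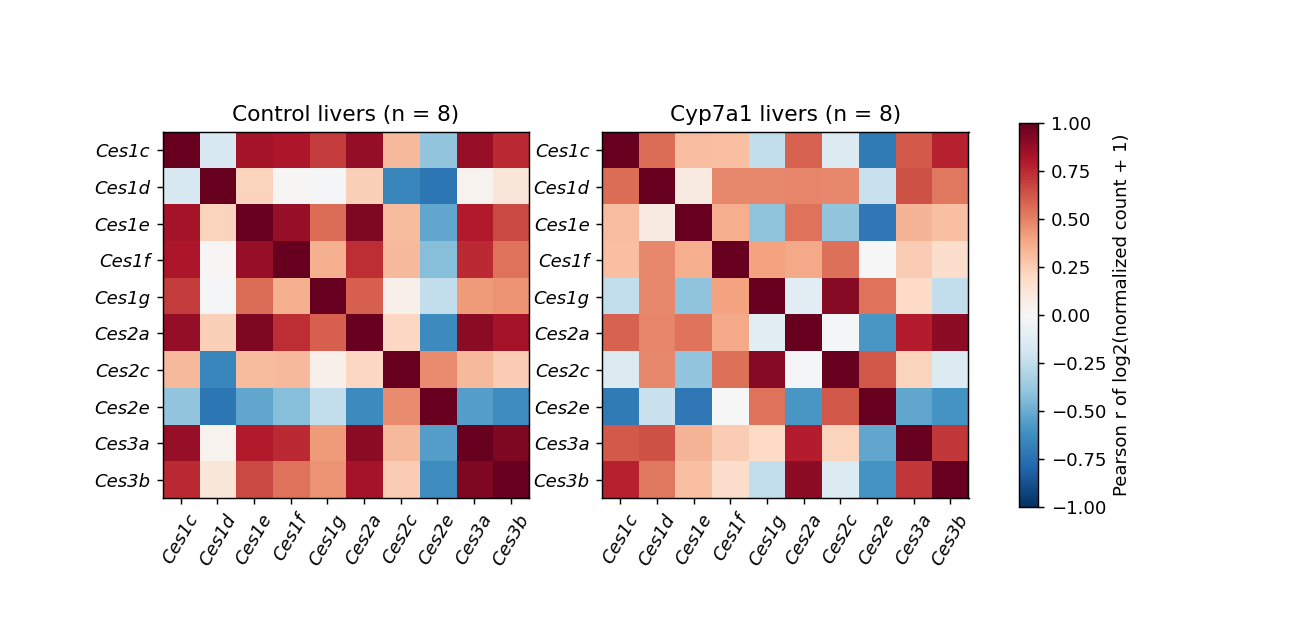
Pearson r of log2(normalized count + 1) between each pair of the 10 carboxylesterases (rows and columns) across the 8 control livers (left) and the 8 Cyp7a1-labelled livers (right), on a colour scale from -1 (blue) to 1 (red). Ces1c, Ces1e, Ces2a, Ces3a and Ces3b form red blocks among controls, and Ces1f is red with each of them too. The control row of Ces2e is blue for 8 of 9 partners.

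Genes outside the family that followed a member most closely were ranked by Pearson r over the 16 libraries after each group mean was removed. The ranking is a description, and all genes of a library share its depth and its piece of tissue. For Ces3a these were Cyp2c44 (r = 0.968), Serpina1e (0.946) and Slc22a7 (0.940), and for Ces3b Lifr (0.912), Cpn2 (0.907) and Scarb1 (0.901). For Ces1c they were Sdc2 (0.957), Pecr (0.957) and Aldh8a1 (0.949), and for Ces2a Slc43a1 (0.941), Tk1 (0.939) and Ptprd (0.935). Ces2e went most closely with Cbln3 (0.902), Aqp8 (0.887) and Enpp5 (0.862). For Ces1f the closest were Marcksl1-ps4 (0.902), Ubl4a (0.879) and Pop1 (0.860), for Ces1d Vamp2 (0.862), Amotl2 (0.852) and Decr2 (0.843), and for Ces1e Hspa9 (0.840), Serpina6 (0.840) and Snrpd2 (0.823). For Ces2c they were Copa (0.834), Mn1 (0.828) and Dnajb11 (0.816). Ces1g had the loosest companions, Rab5b (0.828), Mgam (0.802) and Obfc1 (0.790), and without 1 library the r of Obfc1 dropped to as low as 0.599.

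Other genes that act on the same substrates or on the carboxylesterase genes were counted from fixed lists. Over all genes, limma called 3.07% higher and 3.05% lower, and 20.5% had an unadjusted limma p under 0.05. These shares belong beside every list count below, those of cell types included. Of 25 other ester and lipid hydrolases of liver, 3 rose and 1 fell, with a median log2 fold change of 0.0024. With an unadjusted limma p under 0.05, 6 were higher and 4 lower. Bche, butyrylcholinesterase, a relative of the carboxylesterases, rose from 1140 ± 110 to 1508 ± 116 normalized counts (SD, n = 8 each; log2 fold change 0.41 ± 0.06, limma adjusted p = 0.00119), and the groups did not overlap, as was so for 0.507% of all genes in that direction. Pnpla2, the adipose triglyceride lipase, rose by 0.37 ± 0.11 on the log2 scale (limma adjusted p = 0.0459), Pnpla8 rose by 0.16 ± 0.04 (0.0239) and Pnpla7 changed by -0.28 ± 0.06 (0.00877). The rise of Pnpla2 ended in 11 of the 16 fits that left out 1 library (limma adjusted p up to 0.0880, without Control 13, 16, 20, 25 or 35 or Cyp7a1 2, 5, 17, 19, 28 or 36) and in edgeR's quasi-likelihood test. Pnpla2 and Pnpla8 had the sign opposite to that of the Ces2 genes. Of 15 genes of VLDL assembly and secretion, 1 fell, P4hb, the smaller subunit of the microsomal triglyceride transfer protein complex and a protein disulfide isomerase (log2 fold change -0.24 ± 0.06, limma adjusted p = 0.0205). In that list 0 were higher and 3 lower by unadjusted limma p under 0.05.

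Of 16 nuclear receptors and transcription factors known to act on carboxylesterase genes, 0 rose and 3 fell. With an unadjusted limma p under 0.05, 2 were higher and 5 lower. Nr0b2, the small heterodimer partner and a target of the bile acid receptor, fell from 568 ± 139 to 152 ± 62.6 normalized counts (SD, n = 8 each; log2 fold change -1.95 ± 0.21, limma adjusted p = 4.25e-05). Srebf1, which drives fatty acid synthesis, changed by -0.98 ± 0.10 (limma adjusted p = 3.23e-05), and Mlxipl, the carbohydrate response factor, by -0.68 ± 0.15 (0.0118). CAR and PXR, receptors that sense foreign compounds, induce Ces2a along with many other genes. Of a list of those others, 18 of 19 were in the table, and 0 rose and 5 fell, with a median of -0.27. By unadjusted limma p under 0.05, 0 were higher and 8 lower, against 20.5% of all genes in either direction. Cyp3a11, the main such cytochrome P450, went from 51874 ± 9425 to 37585 ± 7204 (log2 fold change -0.47 ± 0.13, limma adjusted p = 0.0349), Cyp3a25 changed by -0.45 ± 0.06 (0.000277), Cyp3a59 by -0.81 ± 0.10 (0.000245) and Ugt1a1 by -0.26 ± 0.06 (0.0141), and the fifth gene was Abcc3. The call of Cyp3a11 ended in 8 of the 16 fits that left out 1 library (limma adjusted p up to 0.0708, without Control 20, 35 or 38 or Cyp7a1 5, 17, 19, 26 or 28), while those of Cyp3a25, Cyp3a59 and Ugt1a1 passed in every alternative run. Their changes have the sign of the Ces2 genes, and no relation between them was tested.

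Among 18 genes induced by PPAR-alpha, the receptor of fatty acids, 1 rose and 1 fell, with a median of 0.14: Cyp4a14 changed by 1.36 ± 0.32 (limma adjusted p = 0.0196) and Vnn1 by -0.54 ± 0.15 (0.0372). By unadjusted limma p under 0.05, 4 of the 18 were higher and 1 lower. The Vnn1 call ended in 10 of the 16 fits without 1 library (limma adjusted p up to 0.0717, without Control 7, 12, 13, 16, 35 or 38 or Cyp7a1 17, 24, 28 or 36). Of 12 genes that depend on HNF4-alpha, 11 were in the table and 0 were called in either direction by limma, edgeR or DESeq2 with all libraries, or had an unadjusted limma p under 0.05. The smallest adjusted p there was that of Serpina1a (log2 fold change 0.18 ± 0.10, limma adjusted p = 0.365), with Apoa2 next (-0.12 ± 0.07, 0.380). Without Control 20 and Cyp7a1 24 Serpina1a passed, with a log2 fold change of 0.30 (limma adjusted p = 0.0371).

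Genes that flank the 2 arrays were counted in the same way. Within 500 kb of the Ces2 array, 26 other genes were in the table, and 0 rose and 2 fell (Tk2 and Car7), with a median of -0.02. Over all genes, 3.07% were called higher and 3.05% lower. Near the Ces1 array 2 other genes were in the table and 0 were called.

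Markers of where hepatocytes lie and of other liver cells were read beside these results. Of 9 measured hepatocyte markers 1 rose, Tat (log2 fold change 0.84 ± 0.24, limma adjusted p = 0.0466), and the next was Apob (0.11 ± 0.07, 0.382). Of 11 pericentral markers 1 rose, Rhbg (0.71 ± 0.18, limma adjusted p = 0.0236), while Axin2 had -0.31 ± 0.09 (0.0570). Axin2 passed without Control 7 (-0.38, limma adjusted p = 0.0059), without Cyp7a1 2 (-0.34, 0.0470) and by DESeq2 (0.0221), which called 3 pericentral markers higher and 1 lower. Of 11 periportal markers 1 rose, Aldh1b1 (0.65 ± 0.16, limma adjusted p = 0.0254), and Sds had 0.55 ± 0.18 (0.0853) and passed by DESeq2 (0.0280), which called 2 periportal markers higher and 0 lower. By unadjusted limma p under 0.05, 4 pericentral markers were higher and 1 lower, and 3 periportal markers were higher and 1 lower. Among hepatocyte markers 1 was higher and 0 lower, and the share over all genes was 20.5%. Summed pericentral markers spanned 261030 to 415372 normalized counts in controls and 284911 to 399473 in Cyp7a1-labelled livers, and summed periportal markers 162162 to 232101 and 162655 to 299337. The Rhbg call ended without Cyp7a1 28 (limma adjusted p = 0.0501), that of Aldh1b1 without Control 38 (0.0513) and that of Tat in 11 of the 16 fits without 1 library (up to 0.0906, without Control 12, 13, 16, 20, 35 or 38 or Cyp7a1 5, 17, 19, 28 or 36). Their part in the carboxylesterase results was not tested.

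Of 43 measured markers of other liver cell types, 0 were called by limma, edgeR or DESeq2. At an unadjusted limma p under 0.05, 1 was higher and 1 lower, both endothelial. The Kupffer cell and macrophage list had 0 of 12 called (Vsig4 0.20, adjusted p = 0.380; Lyz2 -0.26, 0.454), and its sum spanned 9292 to 16859 in controls and 7839 to 28096 in Cyp7a1-labelled livers. Counts were 0 of 9 for stellate cells and fibroblasts (sum 6428 to 16850 and 8235 to 15350), 0 of 7 for endothelial cells (8313 to 10683 and 7208 to 10190), 0 of 6 for cholangiocytes (1478 to 4299 and 1901 to 4577) and 0 of 5 for blood (2481 to 6199 and 2266 to 5602). For adipocytes, which express Ces1d and Ces1f as well, 4 of 8 markers were in the table, with Adipoq, Plin1, Lep and Retn not among the listed genes, and 0 of 4 were called (sum 2124 to 6305 and 2110 to 4036).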

How the data were processed

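Liver mRNA libraries, 8 with the genotype label Ctrl and 8 labelled CYP7A1, were compared on the signal the authors deposited, normalized counts per gene and library. The submitters' processing notes name DESeq2, featureCounts, R 3.6.3, STAR 2.7.11a and Trim Galore 0.6.10, and the build mm10, without roles or order. The sources used here do not give the annotation release, the strand setting or the rule that chose the listed genes. Values were whole multiples of 1 step per library (0.769 to 1.54), and dividing by it gave whole reads, within 0.05, for 99.945% to 99.992% of values. Of 12618 listed genes 1 (Ccne2, a text cell) was left out, 19 symbols turned into dates were repaired, and 12594 gene IDs matched GENCODE M21.

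Groups were compared with limma 3.58.1 in R 4.3.3 (eBayes, trend) on log2(value + 1), two-sided, Benjamini-Hochberg over 12617 genes with a mean of at least 10, threshold 0.05; fold changes on this scale understate the change of low genes. On recovered reads, edgeR 4.0.16 and DESeq2 1.42.0 were alternatives, as were a pseudocount of 8, a minimum mean of 50, no filter, quantile, equal-total and TMM scaling, array weights, leaving out each library, and leaving out 2 pairs of libraries. The steps were tested on simulated data. No batch or pairing is recorded. Precision is limited by 8 libraries a group.

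The members, lists and motifs were chosen with earlier results of these data known. Named genes are the members, Cyp7a1, up to 4 called genes per pathway list (2 where none passed), up to 2 per cell type list by smallest p, and 3 genes most like each member, predicted genes left out; Ces1b, Tk2 and Car7 were named after their values were seen. Permutation p-values for correlations were added to a plan that gave none.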

Additional observations from a re-analysis of the deposited data

Results flagged for a closer look

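In 7 of the 106 groups of 8 libraries looked at (53 quantities), 1 library stood apart, its gap to the nearest other library being larger, as a share of the group's range, than Dixon's critical value for 8 samples. Chance alone gives about 1 in 20 groups, or 5.3 here. Of the carboxylesterases themselves the subfamily sums were concerned: the Ces2 sum per kb was 4595 in Control 20 against 3236 to 3709 in the other controls, and the Ces1 sum was 29212 in Cyp7a1 24 against 35177 to 38925 in the rest of its group. Control 20 also had Srebf1 at 17100 normalized counts against 9089 to 12036, and Vnn1 at 2012 against 3124 to 4474. The remaining libraries apart were Control 38 for Apob (57110 against 64075 to 68090), Control 13 for Lyz2 (2528 against 1150 to 1660) and Cyp7a1 36 for Aldh1b1 (3854 against 1505 to 2108).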

How the results depend on the processing

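Of 49 genes whose fold changes were followed, 23 passed the limma threshold, and 9 of these passed in all 27 alternatives: Ces2e, Bche, Pnpla7, Srebf1, Nr0b2, Mlxipl, Cyp3a59, Cyp3a25 and Ugt1a1. The other 14 calls, each given with its losses without single libraries beside its value or lost only without Control 16 and Cyp7a1 28 (P4hb 0.0644, Cyp4a14 0.0729) or there and with equal totals (Pnpla8, up to 0.0929), ended in at least 1, as did Cyp3a11 with quantile normalization and Pnpla2 and Vnn1 with equal totals. Scaling did not change which of the 10 carboxylesterases were called, nor did edgeR, DESeq2 or the pseudocount. Without 1 library, calls over all genes ranged from 230 to 399 higher and from 245 to 414 lower (387 and 385 with all), both lowest without Cyp7a1 28. Carboxylesterases called ranged from 0 to 1 higher and from 1 to 2 lower, and list genes called higher from 4 to 9 (7 with all). DESeq2 called 12 list genes higher and 22 lower (7 and 14 by limma). Without Control 20 and Cyp7a1 24, 1 carboxylesterase was lower. Without Control 16 and Cyp7a1 28, 166 genes were higher and 146 lower over the table, 0 carboxylesterases were higher and 1 lower, and 2 list genes were higher and 8 lower; fewer libraries entered these fits. Signs turned only for genes that were not called: Ces1d was -0.051 after quantile normalization and -0.0092 to 0.090 without 1 library, Ces1e -0.0089 to 0.072 without 1 library, and Hbb-bs -0.068 without Control 20 and Cyp7a1 24; the cause was not tested. Pairs past the threshold numbered 16 to 24 without 1 library (18 with all). No filter on low values gave the same fit, since the lowest gene mean was 13.3. Depth limits Ces2b, with 3 reads or fewer in 5 libraries. No paired analysis was possible because the groups share no replicate numbers.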
